A study of Mus musculus with 24 samples.

Results

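Markers of alveolar and lipid-handling macrophages, 8 genes in all, were followed in mouse lung RNA: Marco, Msr1, Cd68, Itgax, Ctsk, Trem2, Gpnmb and Lpl. They were the 8 of 9 listed genes that had a probe set annotated to that gene alone in the series' value table, and 13 of the 22644 probe sets on the array read them. The ninth, Spp1 (osteopontin), was not analysed here because the annotation used listed no probe set under it. The lungs came from male mice aged 6 to 8 weeks, 3 in each of 8 groups, with 1 array per mouse. Tnfr-/- mice (B6.129S-Tnfrsf1a tm1Imx Tnfrsf1b tm1Imx/J) lack both receptors of the cytokine TNF, and the wild-type Tnfr+/+ mice were C57BL/6J, each bought as a strain of its own. Mice of each genotype breathed filtered air in a separate chamber, or 0.3 ppm ozone (O3) without a break for 24, 48 or 72 h, so the groups are Tnfr-/- air, Tnfr-/- O3 24 h, Tnfr-/- O3 48 h and Tnfr-/- O3 72 h, and the same 4 for Tnfr+/+. RNA of homogenized lung tissue, the left lung per the sample labels, was read on MOE430A arrays. Values are normalized signals on a linear scale unless a log2 fold change is named, and each gene is read by its brightest probe set, so a signal is comparable between mice but not between genes. A gene is called where the p of the limma test, adjusted over all probe sets kept, is under 0.05.

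Alveolar macrophages live on the air side of the lung, where they engulf inhaled particles and dying cells and clear the lipid-rich surfactant. The scavenger receptors Marco and Msr1 bind bacteria, particles and modified lipoproteins at their surface, and Itgax is the CD11c chain of an adhesion integrin that mouse alveolar macrophages carry at high levels. What is engulfed goes to the lysosome, where Cd68 is a heavily glycosylated membrane protein and Ctsk (cathepsin K) a protease best known from osteoclasts. Trem2 is a surface receptor for lipids, Gpnmb a glycoprotein of lysosome-related compartments, and Lpl (lipoprotein lipase) frees fatty acids from circulating triglycerides; all 3 are widely used as markers of lipid-laden macrophages. Lpl is also made in large amounts by adipocytes and by heart muscle.

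Sequence upstream of the start is shown for the 3 genes that passed a test in this series, Cd68, Ctsk and Marco, and for Itgax, whose signal followed that of Cd68 and Ctsk. Each is the 250 bases before the RefSeq start in GRCm38.p6, 5′ to 3′ on the gene's own strand. They are Cd68 at chr11:69666171-69666420 and Marco at chr1:120505025-120505274 on the minus strand, and Ctsk at chr3:95498960-95499209 and Itgax at chr7:128129300-128129549 on the plus strand. Capitals mark matches to TGACTCA, the core that AP-1 factors bind, read on either strand (TGAGTCA as its reverse complement).
Cd68: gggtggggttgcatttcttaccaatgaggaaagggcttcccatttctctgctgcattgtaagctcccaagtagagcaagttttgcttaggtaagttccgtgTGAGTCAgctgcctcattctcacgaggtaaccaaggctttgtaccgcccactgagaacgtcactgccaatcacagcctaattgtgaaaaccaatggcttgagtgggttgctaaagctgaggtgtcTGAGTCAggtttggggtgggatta
Ctsk: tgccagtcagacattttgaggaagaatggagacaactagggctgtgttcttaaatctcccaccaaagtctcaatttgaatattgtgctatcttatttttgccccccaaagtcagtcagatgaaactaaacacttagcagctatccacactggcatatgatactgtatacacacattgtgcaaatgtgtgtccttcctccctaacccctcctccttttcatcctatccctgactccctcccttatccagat
Marco: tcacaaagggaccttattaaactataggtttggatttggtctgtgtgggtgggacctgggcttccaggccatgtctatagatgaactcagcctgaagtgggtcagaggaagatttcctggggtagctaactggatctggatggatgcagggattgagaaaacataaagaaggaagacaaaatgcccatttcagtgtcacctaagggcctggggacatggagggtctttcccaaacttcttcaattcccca
Itgax: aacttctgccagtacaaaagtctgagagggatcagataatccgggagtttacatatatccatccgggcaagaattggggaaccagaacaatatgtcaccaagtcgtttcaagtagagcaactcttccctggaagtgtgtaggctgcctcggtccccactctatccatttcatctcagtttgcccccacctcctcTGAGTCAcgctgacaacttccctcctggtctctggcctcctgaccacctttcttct
Cd68 held 2 such matches, 149 and 24 bases before its start, and Itgax held 1, 56 bases before. Ctsk and Marco held none, nor did the windows of Trem2, Spp1 and Gpnmb, which are not shown. Among all 32851 promoters of the table, 4.46% had a match in a window of this length. No window of the 7 listed genes present in the table held CACGTG, the E-box core bound by MiT/TFE factors (6.02% of all promoters), or GGGACTTTC, an NF-kB site (0.289%). The PU.1 type motif GAGGAAGT (2.44% of all promoters) had 1 match, in a window of Spp1, and none in those of Marco, Cd68, Itgax, Ctsk, Trem2 or Gpnmb. These are matches of letters and no measure of binding. Msr1 and Lpl had no window in the table.

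The arrays were alike in brightness, with total signals from 14877000 to 16057700, and no 2 held identical values. One array was unlike the rest: Tnfr+/+ O3 72 h replicate 1 correlated with the others at 0.909 on average, where the remaining arrays had 0.933 to 0.947, and its Gapdh 3′/5′ signal ratio was 4.45, where they had 0.89 to 1.74. Tnfrsf1b, a disrupted gene, read 151.5 to 266 on the 12 Tnfr-/- arrays and 356 to 525 on the 12 Tnfr+/+ arrays by its brighter probe set, while its other one and that of Tnfrsf1a overlapped between genotypes. Whether they read the disrupted parts is not given in the sources used here, so they do not check the genotypes. None of the 8 markers of lung tissue in the list passed a test after 48 h of O3 in either genotype. Since unsorted lung tissue was measured, fewer cells of a type and less RNA per cell cannot be told apart.

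Cd68 and Ctsk rose with O3 in both genotypes, and Marco passed the test in Tnfr+/+ lungs alone. In Tnfr-/- lungs, O3 raised 1 of the 8 genes after 24 h (Cd68), 2 after 48 h and 2 after 72 h (Cd68 and Ctsk each time), while 0.845%, 2.6% and 2.55% of all 11597 genes rose. In Tnfr+/+ lungs O3 raised 0 members after 24 h, 3 after 48 h and 3 after 72 h (Marco, Cd68 and Ctsk each time), while 0.0862%, 1.04% and 1.93% of all genes rose. No member fell in these 6 comparisons, where 0.466%, 1.49% and 1.7% of all genes fell in Tnfr-/- lungs and 0.00862%, 0.336% and 1.5% in Tnfr+/+ lungs. An unadjusted p under 0.05 took in 2, 4 and 3 members in Tnfr-/- lungs, with 13.2%, 19% and 17.7% of all genes, and 3, 5 and 4 members in Tnfr+/+ lungs, with 5.94%, 12.3% and 17.9%. At the study's unadjusted 0.01 for O3 these became 2, 3 and 2 members in Tnfr-/- lungs (5.3%, 8.75% and 8.27% of all genes) and 2, 4 and 3 in Tnfr+/+ lungs (1.88%, 4.86% and 8.09%). The members' median log2 fold change was 0.22, 0.31 and 0.37 at 24, 48 and 72 h in Tnfr-/- lungs, where all genes had -0.02, -0.06 and -0.06. It was 0.13, 0.59 and 0.36 in Tnfr+/+ lungs, where all genes had 0.00, -0.02 and -0.02. Msr1, Itgax, Trem2, Gpnmb and Lpl passed in none of the 17 comparisons. Fitted on only the groups compared, 7 of the 12 member calls ended: Cd68 in Tnfr-/- lungs at 24 h, all those in Tnfr+/+ lungs other than Marco at 48 h, and a time step of Ctsk (adjusted p up to 0.295).

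**Figure D1:**
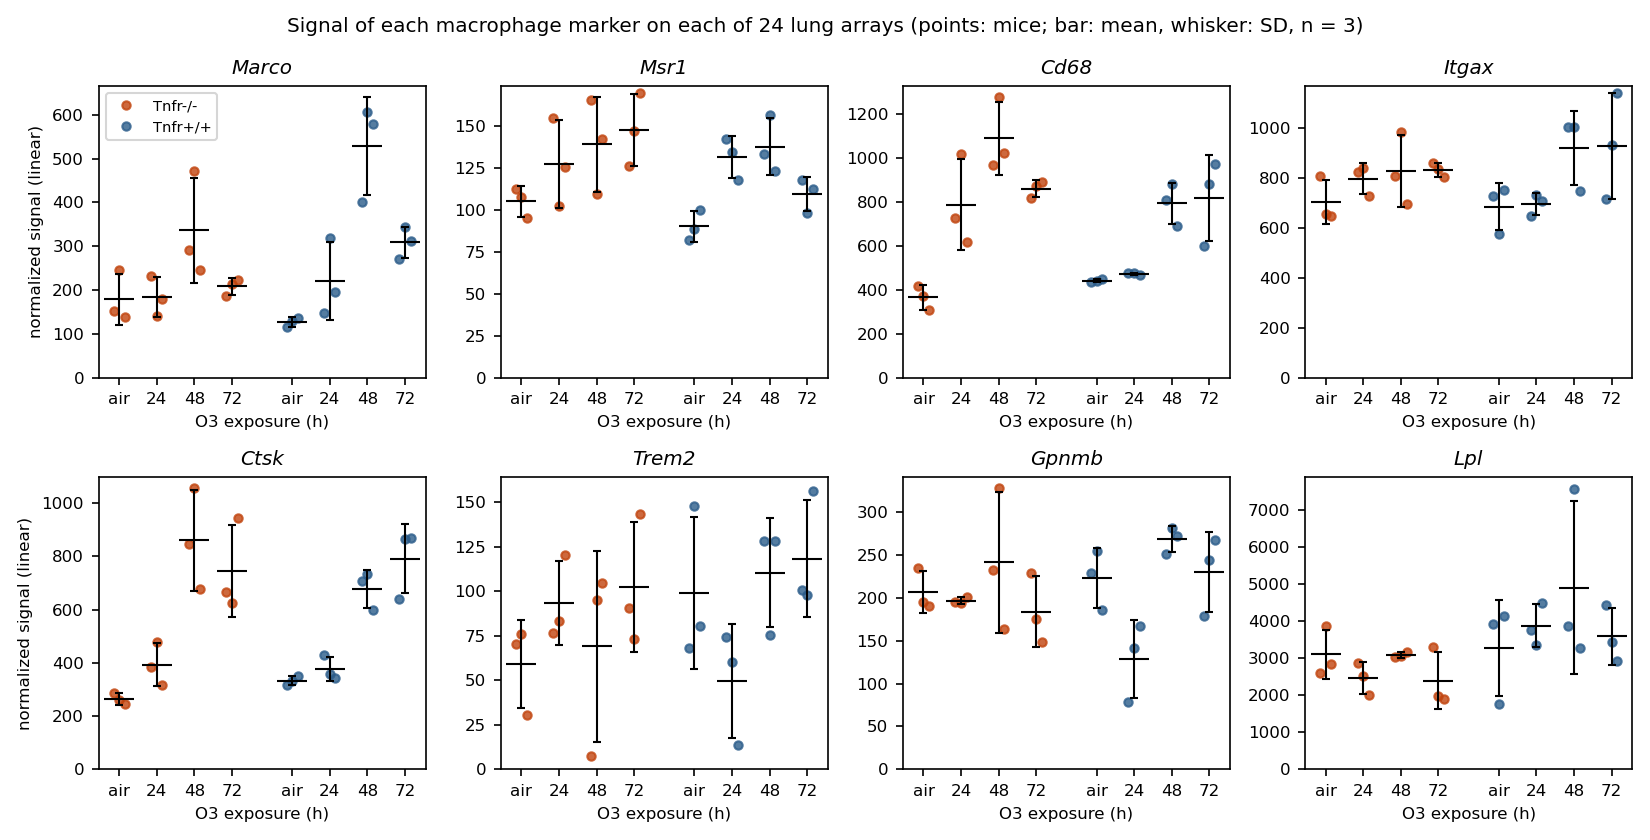
Normalized signal (linear axis from 0) of the 8 marker genes on each of the 24 arrays, by hours of O3, with Tnfr-/- mice on the left of each panel and Tnfr+/+ mice on the right; points are mice, bars means and whiskers the SD (n = 3). Cd68 and Ctsk stand above air at 48 and 72 h in both genotypes, and Marco reaches its highest mean, 528, in Tnfr+/+ mice at 48 h.

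Cd68 rose within the first day in Tnfr-/- lungs. Its signal there was 418, 369.7 and 307 in air, 726, 1016 and 618 after 24 h, 965, 1277 and 1022 after 48 h, and 817, 871 and 888 after 72 h of O3. Every exposed Tnfr-/- lung lay above every Tnfr-/- lung in air. Tnfr+/+ lungs had 436, 438 and 449 in air, 474, 476 and 464 after 24 h, 807, 878 and 691 after 48 h, and 596, 878 and 971 after 72 h. The 24 h values of Tnfr+/+ lungs, though all above air, were within 1.07-fold of it on average, while those at 48 and 72 h were clear of air in each lung. The log2 fold changes against air were 1.09, 1.58 and 1.25 in Tnfr-/- lungs (standard error 0.19 each, adjusted p = 0.0052, 6.2e-05 and 0.00052) and 0.10, 0.84 and 0.85 in Tnfr+/+ lungs (adjusted p = 1.00, 0.031 and 0.016). The Tnfr-/- calls held with any 1 array left out. The Tnfr+/+ call at 48 h ended without air replicate 1, 2 or 3 or O3 48 h replicate 1 or 2 (adjusted p up to 0.123), and that at 72 h without air replicate 2 or 3 or O3 72 h replicate 3 (up to 0.0669).

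Ctsk was called at 48 and 72 h in both genotypes and at 24 h in neither. In Tnfr-/- lungs its signal was 287, 260.0 and 245 in air, 386, 476 and 314 after 24 h, 847, 1056 and 677 after 48 h, and 667, 623 and 945 after 72 h. Tnfr+/+ lungs had 317, 333 and 349 in air, 428, 359 and 342 after 24 h, 706, 732 and 597 after 48 h, and 641, 865 and 868 after 72 h. The Tnfr-/- lungs at 24 h already lay above those in air, and all lungs at 48 and 72 h lay above all lungs in air or at 24 h, in both genotypes. The log2 fold changes against air were 0.55, 1.68 and 1.48 in Tnfr-/- lungs (standard error 0.19 each, adjusted p = 0.205, 4.6e-05 and 0.00012) and 0.17, 1.02 and 1.24 in Tnfr+/+ lungs (adjusted p = 1.00, 0.0098 and 0.0013). The step between 24 and 48 h was a log2 fold change of 1.13 in Tnfr-/- lungs (adjusted p = 0.014) and of 0.85 in Tnfr+/+ lungs (adjusted p = 0.083). That made Ctsk the 1 member of 8 called in a time step, where 0.474% of all genes changed between 24 and 48 h in Tnfr-/- lungs and 0.267% did in Tnfr+/+ lungs. Between 48 and 72 h no member passed in either genotype, with 0.00862% of all genes called in Tnfr-/- lungs and 0% in Tnfr+/+ lungs. At an unadjusted p under 0.05, limma took in 3 members for 48 against 24 h and 1 for 72 against 48 h in Tnfr-/- lungs (9.66% and 5.6% of all genes), and 5 and 1 in Tnfr+/+ lungs (9.22% and 8.29%). At 0.01 it took in 2 and 0 in Tnfr-/- lungs (3.21% and 1.16%), and 4 and 0 in Tnfr+/+ lungs (2.81% and 2.42%). The Ctsk step ended without Tnfr-/- O3 24 h replicate 3 or Tnfr-/- O3 48 h replicate 1 or 2 (adjusted p up to 0.106), and the Tnfr+/+ call at 48 h without Tnfr+/+ O3 48 h replicate 2 (0.0514).

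Marco had the largest change of any member, a 4.10-fold rise in Tnfr+/+ lungs at 48 h. Signals in Tnfr-/- lungs were 152, 246 and 139 in air, 231, 141 and 180.1 after 24 h, 291, 472 and 246 after 48 h, and 187, 214 and 223 after 72 h. The Tnfr-/- values at 48 h were above those in air, the lowest by less than 1 unit, and those at 24 and 72 h overlapped with air. Tnfr+/+ lungs had 115, 129.6 and 136 in air, 147, 318 and 195 after 24 h, 401, 606 and 578 after 48 h, and 271, 343 and 311 after 72 h. Every exposed Tnfr+/+ lung exceeded every Tnfr+/+ lung in air. The log2 fold changes against air were 0.06, 0.90 and 0.26 in Tnfr-/- lungs (standard error 0.29 each, adjusted p = 0.97, 0.087 and 0.71) and 0.72, 2.04 and 1.28 in Tnfr+/+ lungs (adjusted p = 0.72, 0.00092 and 0.019). Without Tnfr-/- air replicate 2, the highest of its group, the Tnfr-/- value at 48 h was 1.15 and passed (adjusted p = 0.05). The Tnfr+/+ call at 48 h held with any 1 array left out, while that at 72 h ended without Tnfr+/+ air replicate 1, 2 or 3 (adjusted p up to 0.0652).

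Msr1 and Itgax, the other scavenger receptor and CD11c, moved less. Msr1 read 94.9 to 112 in Tnfr-/- lungs in air, 102 to 155 at 24 h, 109.5 to 166 at 48 h and 126 to 169.5 at 72 h. In Tnfr+/+ lungs the highest Msr1 value was 143 at 24 h, 157 at 48 h and 118 at 72 h, and every lung at 24 and 48 h lay above every lung in air, of which the lowest was 82.1. Its largest log2 fold change was 0.61 (95% interval 0.25 to 0.97, adjusted p = 0.10), in Tnfr+/+ lungs at 48 h. The other 3 Msr1 probe sets were dim, below the 20th percentile on 8, 20 and 22 of the 24 arrays, and the 4 were uncorrelated over the arrays (r from -0.08 to 0.11), so the Msr1 values rest on 1 probe set. Itgax averaged 703 ± 89.0 (SD, n = 3) in Tnfr-/- lungs in air and between 796 and 832 after O3, with each exposed group overlapping air. In Tnfr+/+ lungs it averaged 684 ± 95.3 in air, 694 ± 43.9 at 24 h, 917 ± 148 at 48 h and 927 ± 212 at 72 h. Its log2 fold changes of 0.42 at 48 h and 0.42 at 72 h in Tnfr+/+ lungs did not pass (adjusted p = 0.33 and 0.20).

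Of the lipid-linked markers none passed, and their intervals differ in width. Trem2 was dim, from 7.07 to 156 over the 24 arrays and below the 20th percentile on 3 of them, and its 95% intervals reached 1.63 log2 units to either side. Its other probe set was below that level on all 24 arrays and was not tested. Gpnmb was steadier. In Tnfr-/- lungs it was 235, 196 and 190.2 in air, 195, 194 and 201 after 24 h, 232, 328 and 164 after 48 h, and 229, 175 and 148 after 72 h, and each exposed group overlapped air. In Tnfr+/+ lungs it was 229.6, 255 and 186 in air, 78.4, 142 and 167 after 24 h, 252, 282 and 272 after 48 h, and 178, 244 and 268 after 72 h. The 24 h values of Tnfr+/+ lungs lay below those in air, with a log2 fold change of -0.85 (95% interval -1.40 to -0.30, adjusted p = 0.47). It was thus the member with the lowest unadjusted p in that comparison, 0.0043, in the direction opposite to Marco and Msr1.

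Lpl did not pass either, and 1 lung set its highest mean. In Tnfr-/- lungs its signal was 2594, 3858 and 2825 in air, 2859, 2516 and 1986 after 24 h, 3024, 3052 and 3163 after 48 h, and 3286, 1977 and 1900 after 72 h. Tnfr+/+ lungs had 3921, 1769 and 4120 in air, 3745, 3361 and 4495 after 24 h, 3858, 7571 and 3269 after 48 h, and 4415, 3426 and 2907 after 72 h. Exposed and air groups overlapped in both genotypes. The log2 fold change in Tnfr+/+ lungs at 48 h was 0.58 (adjusted p = 0.54) and 0.22 without replicate 2. On that array the summed signal of the 5 adipocyte markers measured was 7241, against 1180 to 2397 on the other 23. The log2 signal of Lpl correlated with that of the adipocyte sum at r = 0.79 over the 24 arrays and at 0.69 without that array. The part of adipocytes in the Lpl signal was not tested.

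**Figure D2:**
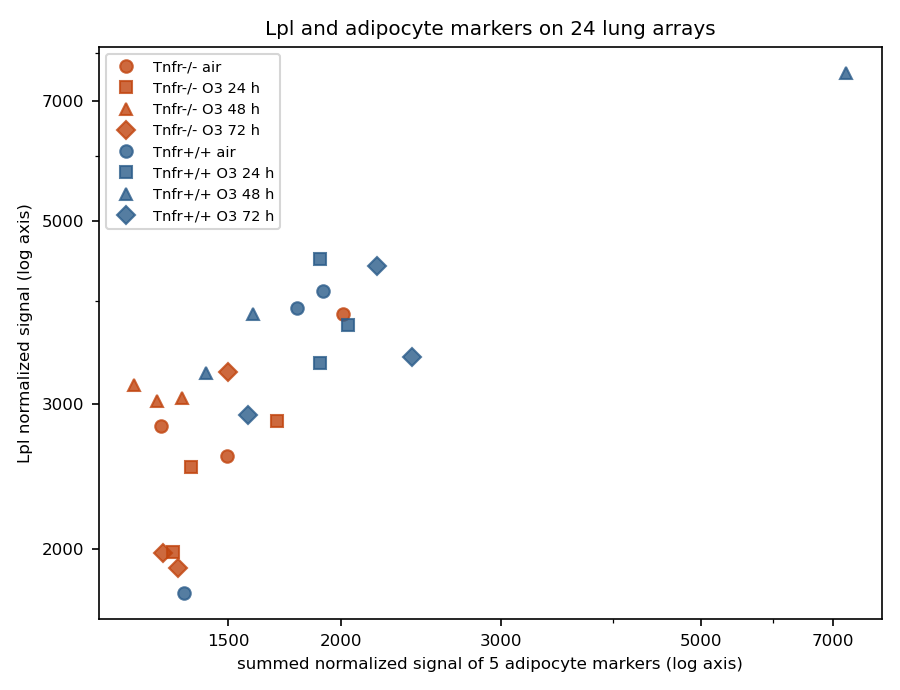
Normalized Lpl signal against the summed normalized signal of 5 adipocyte markers on the 24 arrays (both axes logarithmic); colour marks the genotype and shape the exposure. Tnfr+/+ O3 48 h replicate 2 lies alone at the upper right, with an Lpl signal of 7571 and a marker sum of 7241.

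Set side by side, the 3 called genes did not have the same order of groups. Cd68 was highest in Tnfr-/- O3 48 h lungs (1088 ± 166, SD, n = 3), which did not overlap with the next group, Tnfr-/- O3 72 h (859 ± 37.3). They did overlap with groups of lower mean. Their lowest value, 965, lay below the highest of Tnfr+/+ O3 72 h (971) and of Tnfr-/- O3 24 h (1016). The next 3 groups, Tnfr+/+ O3 72 h, Tnfr+/+ O3 48 h and Tnfr-/- O3 24 h, overlapped with one another at means of 787 to 815. Tnfr+/+ O3 24 h (471 ± 6.24), Tnfr+/+ air (441 ± 6.77) and Tnfr-/- air (365 ± 55.5) followed with no overlap between neighbours. Ctsk was highest in the same group (860 ± 189.5), and the 4 groups at 48 and 72 h overlapped in sequence, down to Tnfr+/+ O3 48 h (678 ± 71.5). Tnfr-/- air had its lowest mean (264 ± 21.5) and did not overlap with the one above it, Tnfr+/+ air (333 ± 16.0). Marco was highest in Tnfr+/+ O3 48 h lungs (528 ± 111), overlapping with Tnfr-/- O3 48 h (336 ± 119.5), and lowest in Tnfr+/+ air (127 ± 10.7), which alone did not overlap with its neighbour.

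**Figure D3:**
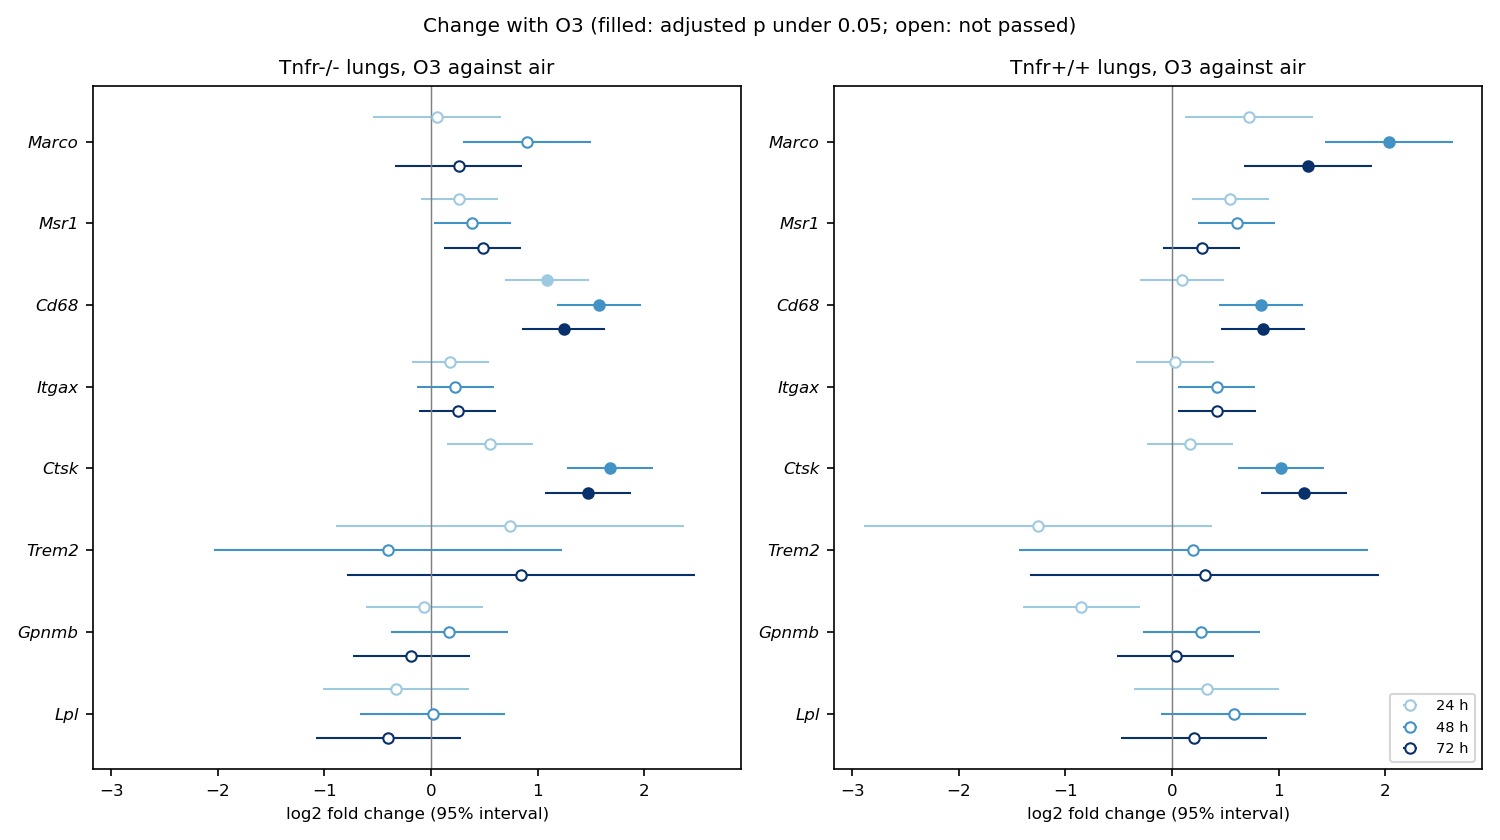
Log2 fold change of each marker gene after 24, 48 and 72 h of O3 against air, with its 95% interval, for Tnfr-/- lungs on the left and Tnfr+/+ lungs on the right; filled points passed at an adjusted p under 0.05. Cd68 and Ctsk have filled points in both panels and Marco in the right one alone, and the Trem2 intervals are the widest.

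Setting the genotypes against each other reads loss of the TNF receptors together with any other difference between the strains, and no member passed. Receptor loss and strain cannot be told apart, since each genotype was bought as its own strain. The counts were 0 of 8 in air and at 24, 48 and 72 h of O3 (limma), against 0.069%, 1.05%, 0.147% and 0.129% of all genes called in either direction. At an unadjusted p under 0.05, limma took in 0, 2, 2 and 1 members, with 6.51%, 13.2%, 9.41% and 10.3% of all genes. The nearest to the threshold was Cd68 at 24 h, which was 726, 1016 and 618 in Tnfr-/- lungs and 474, 476 and 464 in Tnfr+/+ lungs. Those groups did not overlap, and the log2 fold change was 0.71 (95% interval 0.32 to 1.10, adjusted p = 0.078). Without Tnfr+/+ O3 72 h replicate 1, the array that stood apart, Cd68 passed, the count at 24 h being 1. In all, the genotypes did not overlap for 3 members in air, 4 at 24 h, 2 at 48 h and 2 at 72 h, with 15.3%, 22.9%, 16.8% and 13% of all genes. In air these were Marco, higher in Tnfr-/- lungs, and Cd68 and Ctsk, lower there (log2 fold changes -0.29 and -0.34, adjusted p = 0.85 and 0.81). Cd68, Trem2 (1.23) and Gpnmb (0.68) at 24 h and Cd68 at 48 h (0.45) lay higher in Tnfr-/- lungs, and Lpl at both times lower (adjusted p = 0.51, 0.24 and 0.38 for the values given). Trem2 had the opposite sign in air (-0.77) and at 48 h (-1.38), with the groups overlapping and 1 Tnfr-/- array at 48 h reading 7.07. At 72 h Trem2 averaged 102 in Tnfr-/- and 118 in Tnfr+/+ lungs. At 72 h Msr1 lay higher (0.42, 95% interval 0.06 to 0.79, adjusted p = 0.38) and Marco lower. Msr1 differed by 0.22, -0.06 and 0.00 in air and at 24 and 48 h, with the groups overlapping. Marco had log2 fold changes of 0.45 in air and -0.21, -0.69 and -0.57 after 24, 48 and 72 h (adjusted p = 0.84, 0.80, 0.39 and 0.47). Lpl had -0.01 in air and -0.66, -0.57 and -0.61 after O3 (adjusted p = 1.00, 0.37, 0.54 and 0.49), and its 48 h value was -0.21 without Tnfr+/+ O3 48 h replicate 2. The median of the 5 adipocyte markers, Tnfr-/- against Tnfr+/+, was -0.14 in air and -0.67, -0.75 and -0.50 after 24, 48 and 72 h. That of the 8 cardiac muscle markers was -0.63 in air and -0.67, -0.55 and -0.48 after O3. The part of either in the Lpl values was not tested.

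**Figure D4:**
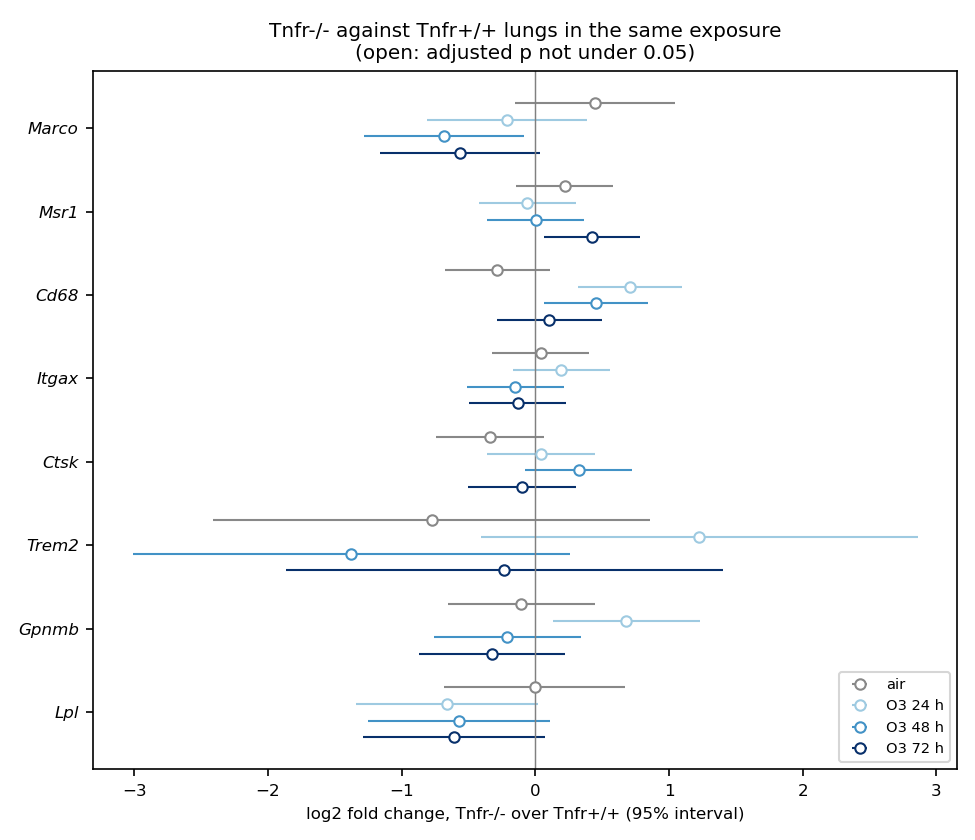
Log2 fold change of each marker gene in Tnfr-/- over Tnfr+/+ lungs in air and after 24, 48 and 72 h of O3, with its 95% interval; all points are open because none passed at an adjusted p under 0.05. Before adjustment, intervals leave out 0 for 2 members at 24 h, 2 at 48 h and 1 at 72 h. Cd68 at 24 h (0.71), Marco at 48 h (-0.69) and Msr1 at 72 h (0.42) are among them.

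Whether O3 acted differently in the genotypes was tested by the interaction, the O3 effect in Tnfr-/- lungs minus that in Tnfr+/+ lungs. No member passed at 24, 48 or 72 h, with 0.0172%, 0% and 0.00862% of all genes called, and 2, 3 and 1 members had an unadjusted p under 0.05 by limma, with 6.48%, 5.64% and 5.19% of all genes. For Cd68 the difference was 0.99 at 24 h (95% interval 0.44 to 1.55, adjusted p = 0.43) and 0.74 at 48 h (adjusted p = 0.80). For Marco it was -1.14 at 48 h (95% interval -1.98 to -0.29, adjusted p = 0.80) and -1.02 at 72 h (adjusted p = 0.87). For Ctsk it was 0.66 at 48 h (adjusted p = 0.85). Marco being called in Tnfr+/+ lungs alone is therefore not shown to be a difference between the genotypes.

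Over the 24 arrays, which share normalization and groups, Cd68 and Ctsk followed each other most closely (r = 0.89, and 0.76 once group means were taken out). Itgax correlated with Cd68 at 0.71 (0.74 around group means) and with Ctsk at 0.69 (0.58). Marco correlated with Ctsk at 0.64 and with Cd68 at 0.55, but at 0.14 and 0.15 around group means. Trem2 and Lpl correlated with no other member beyond 0.22 and 0.39 in size by Pearson's r. By rank, which gives less weight to the Trem2 arrays near background, Trem2 reached 0.41 with Ctsk and 0.37 with Cd68. The genes most like Cd68, among 6595 of at least median signal, were Lcn2 (r = 0.938), a siderophore-binding lipocalin, Clec4n (0.932), the fungal receptor dectin-2, and Lrp2 (0.924), the endocytic receptor megalin. Ctsk was closest to Pclaf (0.948), Clec4n (0.945) and Rrm2 (0.939), Pclaf and Rrm2 being genes of DNA replication. Lpl was closest to Cyp2e1 (0.795), Car3 (0.784) and Fabp4 (0.764), of which Car3 and Fabp4 are abundant in adipocytes. For Marco the highest was Pprc1 (0.751), for Msr1 Cxcl17 (0.686), for Itgax Fpr2 (0.781), for Trem2 Igsf5 (0.667) and for Gpnmb Napsa (0.62).

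Among 9 other alveolar macrophage markers, Chil3, a chitinase-like secreted protein, and Plet1 rose at 48 and 72 h in both genotypes. Over all genes, 2.6% and 2.55% rose at these times in Tnfr-/- lungs, and 1.04% and 1.93% in Tnfr+/+ lungs. Chil3 had log2 fold changes of 1.28 and 1.00 in Tnfr-/- lungs (adjusted p = 0.00048 and 0.0035) and 0.82 and 0.81 in Tnfr+/+ lungs (adjusted p = 0.032 and 0.022). Plet1 had 0.44 and 0.57 in Tnfr-/- lungs (adjusted p = 0.021 and 0.0028) and 0.64 and 0.58 in Tnfr+/+ lungs (adjusted p = 0.0030 and 0.0037). The Chil3 calls in Tnfr+/+ lungs ended without Tnfr+/+ air replicate 2 at either time, without air replicate 1 or O3 48 h replicate 1 or 2 at 48 h, and without O3 72 h replicate 3 at 72 h (adjusted p up to 0.184), and that of Plet1 in Tnfr-/- lungs at 48 h without Tnfr-/- air replicate 2 or 3 or O3 48 h replicate 2 or 3 (up to 0.111). With a gene read by the mean of its probe sets, the Plet1 values were 0.13 and 0.29 in Tnfr-/- lungs at 48 and 72 h and 0.44 in Tnfr+/+ lungs at 48 h, and none of these passed (adjusted p = 0.69, 0.30 and 0.16). The other 7, Mrc1 (the mannose receptor) among them, did not pass. Mrc1 had 0.66 at 48 h in Tnfr-/- lungs and 0.68 in Tnfr+/+ lungs (adjusted p = 0.14 and 0.22). The summed signal of the 9 was 27200 to 30400 in Tnfr-/- lungs at 48 h, against 17600 to 19200 in Tnfr-/- air. It was 20000 to 38900 in Tnfr+/+ lungs at 48 h, against 16700 to 19400 in Tnfr+/+ air. Such sums weigh bright genes most. Chil3 alone averaged 13100 at 48 h and 5420 in air in Tnfr-/- lungs, and 9720 and 5510 in Tnfr+/+ lungs. One of the 9, Fabp4, is also an adipocyte gene.

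Beyond Marco and Msr1, 2 of 13 further scavenger receptors rose in both genotypes at 48 and 72 h. At these times 2.6% and 2.55% of all genes rose in Tnfr-/- lungs, and 1.04% and 1.93% in Tnfr+/+ lungs. Olr1, a receptor for oxidized LDL, had log2 fold changes of 1.20 and 1.25 in Tnfr-/- lungs at 48 and 72 h (adjusted p = 0.0015 and 0.00088) and 0.88 and 0.76 in Tnfr+/+ lungs (adjusted p = 0.033 and 0.042). Of the 3 Tnfr-/- air arrays, 1 read Olr1 below the 20th percentile. Clec7a, the beta-glucan receptor dectin-1, had 1.03 and 1.10 in Tnfr-/- lungs (adjusted p = 0.017 and 0.011) and 1.05 and 1.18 in Tnfr+/+ lungs (adjusted p = 0.032 and 0.0088). Scarb1 rose in Tnfr-/- lungs at 48 h (0.71, adjusted p = 0.044) and Cxcl16 in Tnfr+/+ lungs at 72 h (0.66, adjusted p = 0.043), neither by the mean of its probe sets (adjusted p = 0.077 and 0.052). Of these calls, both of Olr1 in Tnfr-/- lungs and that of Clec7a in Tnfr+/+ lungs at 72 h held with any 1 array left out. The others did not (adjusted p up to 0.187): without Tnfr-/- air replicate 2 the remaining 3 in Tnfr-/- lungs ended, and without Tnfr+/+ O3 48 h replicate 1 the remaining 4 in Tnfr+/+ lungs. The list medians stayed between -0.10 and 0.13 at 48 h.

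Some genes listed around the lysosomal Cd68 and Ctsk rose. Of 17 genes on a list of lysosomal proteases and membrane proteins, 1, 4 and 4 rose in Tnfr-/- lungs at 24, 48 and 72 h. In Tnfr+/+ lungs 2 and 1 rose at 48 and 72 h. The shares of all genes that rose were 0.845%, 2.6% and 2.55% in Tnfr-/- lungs, and 1.04% and 1.93% in Tnfr+/+ lungs. Lgals3, galectin-3, was called most often, and is a sugar-binding protein recruited to damaged lysosomes, not a protease or membrane protein. Lgals3 was the only called gene of the list in Tnfr-/- lungs at 24 h and in Tnfr+/+ lungs at 72 h. Its log2 fold change was 0.68, 0.77 and 0.66 in Tnfr-/- lungs (adjusted p = 0.0042, 0.00056 and 0.0017) and 0.81 and 0.73 in Tnfr+/+ lungs at 48 and 72 h (adjusted p = 0.00078 and 0.0012). Ctsh, another cathepsin, had 0.77 and 0.60 in Tnfr-/- lungs at 48 and 72 h (adjusted p = 0.00013 and 0.0013) and 0.43 in Tnfr+/+ lungs at 48 h (adjusted p = 0.034). Ctsc, which activates granule proteases, had 0.70 and 0.91 at these times in Tnfr-/- lungs (adjusted p = 0.0080 and 0.00088). Its mean signal there was 3830 in air, 6260 at 48 h and 7270 at 72 h. In Tnfr+/+ lungs, where Ctsc did not pass, it was 5140, 5670 and 7100. The Ctsh call in Tnfr+/+ lungs ended without any of the 6 arrays compared (adjusted p up to 0.125), and the other calls given here held with any 1 array left out. None of the 3 MiT/TFE factors tested, known regulators of lysosomal genes, passed.

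**Figure D5:**
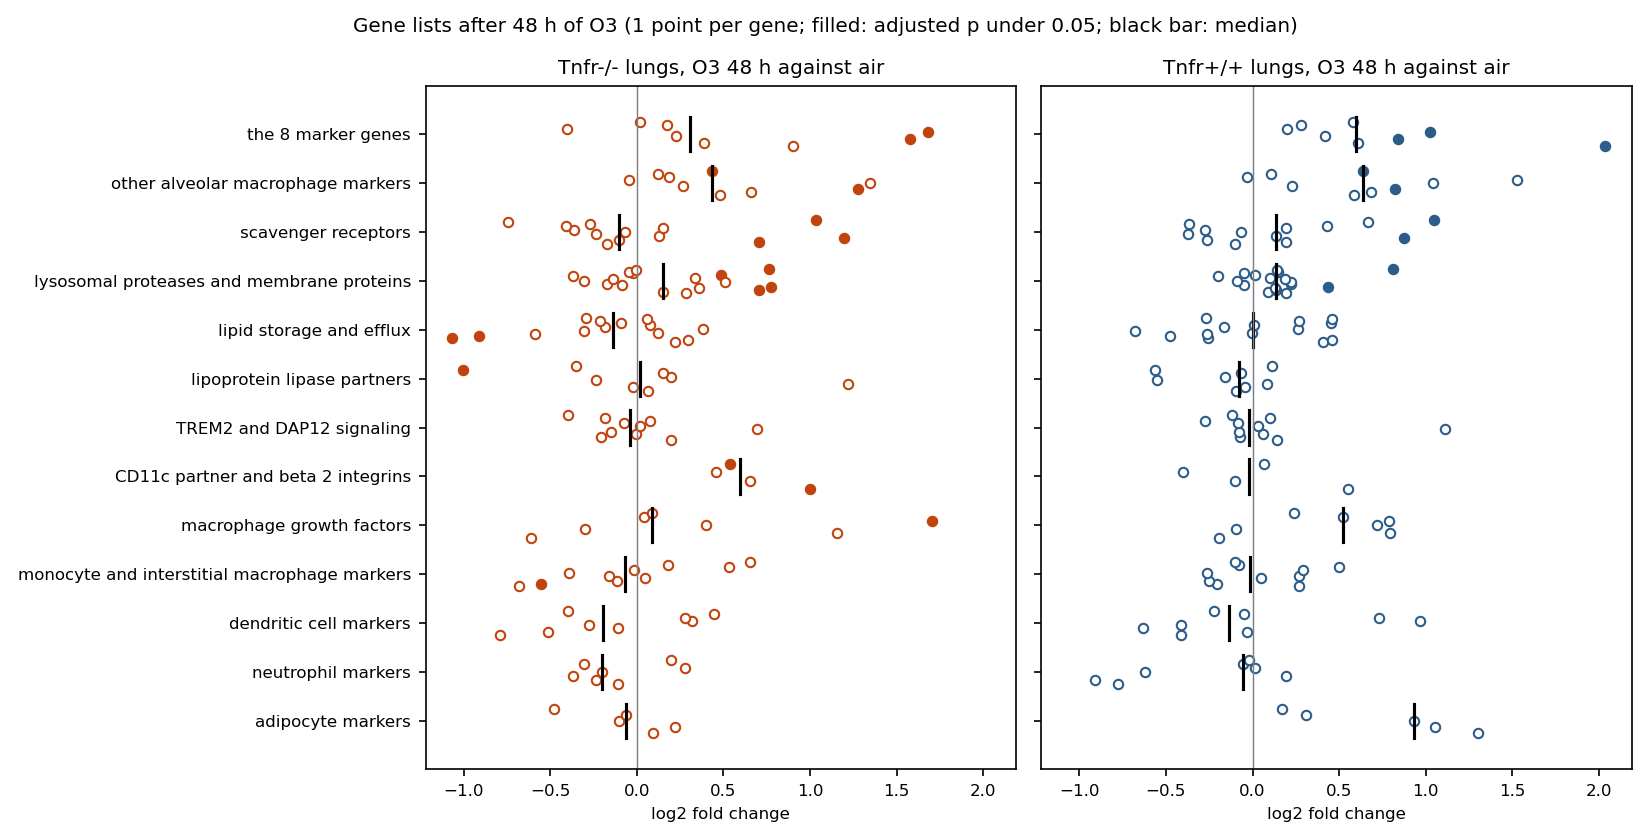
Log2 fold change after 48 h of O3 against air for the genes of 13 lists, 1 point per gene, in Tnfr-/- lungs on the left and Tnfr+/+ lungs on the right; filled points passed at an adjusted p under 0.05 and black bars are list medians. The marker genes have medians of 0.31 in Tnfr-/- and 0.59 in Tnfr+/+ lungs, and the lists of monocytes, dendritic cells and neutrophils lie around 0.

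Around Lpl and lipid handling, the calls went down. Abcg1, which exports cholesterol, fell in Tnfr-/- lungs at 24, 48 and 72 h (log2 fold changes -0.76, -0.91 and -0.58, adjusted p = 0.011, 0.0010 and 0.028) and in Tnfr+/+ lungs at 72 h (-0.58, adjusted p = 0.034). Abca1, its partner in cholesterol export, fell in Tnfr-/- lungs at 48 h (-1.06, adjusted p = 0.028). They were the called genes among 14 of lipid storage and efflux. Over all genes, 0.466%, 1.49% and 1.7% fell in Tnfr-/- lungs at 24, 48 and 72 h, and 1.5% in Tnfr+/+ lungs at 72 h. Vldlr, a lipoprotein receptor and the 1 called gene of 8 Lpl partners, fell in Tnfr-/- lungs at 24, 48 and 72 h (-0.96 and -1.08 at 24 and 72 h, adjusted p = 0.047 and 0.0099). Neither Vldlr nor Abca1 was called in Tnfr+/+ lungs, but their means declined there as well. Vldlr averaged 795 in Tnfr+/+ air and 669, 537 and 456 after O3, against 840 and 432, 420 and 416 in Tnfr-/- lungs. Abca1 averaged 1120 in Tnfr+/+ air and 1020, 918 and 706 after O3, against 1060 and 501, 500 and 619 in Tnfr-/- lungs. The Abcg1 call in Tnfr-/- lungs at 48 h held with any 1 array left out. Each of the others ended without 1 or more arrays, among them Tnfr-/- air replicate 3 for Abcg1 at 24 and 72 h and Abca1, and Tnfr-/- O3 72 h replicate 3 for Vldlr at 72 h (adjusted p up to 0.0765, 0.158, 0.125 and 0.0659). By the mean of a gene's probe sets Abca1 did not pass (-0.43, adjusted p = 0.44), nor did Vldlr at 24 h (-0.59, adjusted p = 0.25) or 48 h (-0.68, adjusted p = 0.10). Gpihbp1, which holds Lpl at the capillary wall, was not analysed here.

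Around Itgax, its partner chain Itgb2 rose in Tnfr-/- lungs at 24, 48 and 72 h (log2 fold changes 0.83, 1.00 and 0.94, adjusted p = 0.042, 0.0053 and 0.0083). Icam1, a ligand of such integrins, rose there as well (0.51, 0.54 and 0.46, adjusted p = 0.047, 0.016 and 0.038). Neither passed against air in Tnfr+/+ lungs, but Itgb2 rose there between 24 and 48 h (0.95, adjusted p = 0.048). Its means in air and at 24 and 48 h were 871 ± 171, 1550 ± 300 and 1740 ± 274 in Tnfr-/- lungs (SD, n = 3). In Tnfr+/+ lungs they were 1140 ± 239, 856 ± 100 and 1660 ± 200, so the 24 h mean lay below that in air. Icam1 averaged 4090 in Tnfr-/- and 4950 in Tnfr+/+ air, and 5690 and 5730 at 72 h. In Tnfr-/- against Tnfr+/+ lungs at 24 h, Itgb2 (0.84, adjusted p = 0.042), Lgals3 (0.49, adjusted p = 0.045) and Plcg2, a phospholipase downstream of Trem2 (0.64, adjusted p = 0.047), were the list genes that passed. Plcg2 averaged 648 in Tnfr-/- and 616 in Tnfr+/+ air, and 761 and 483 at 24 h. The paper lists Plcg2 at 24 h under the quantity of immune cells, together with Cd79a and Cd79b. Which cells carried the Plcg2 signal was not tested. Of the Itgb2, Icam1, Lgals3 and Plcg2 calls in this paragraph, that of Itgb2 against air at 48 h held with any 1 array left out; at 72 h it ended without Tnfr-/- air replicate 2 (adjusted p = 0.0515). The 3 between the genotypes held in 11, 5 and 5 of 24 such fits. Tyrobp, the adaptor of Trem2, had 0.61 (adjusted p = 0.14), and none of the 10 genes of its signaling list passed against air at any time. Cd44, a receptor of osteopontin, ranged from 0.14 to 0.49 against air with no call.

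Among 7 macrophage growth factors and receptors, 3 receptor chains passed. Over all genes, 0.845%, 2.6% and 2.55% rose in Tnfr-/- lungs at 24, 48 and 72 h, and 1.93% in Tnfr+/+ lungs at 72 h. Csf2rb, the signaling chain of the GM-CSF receptor on which alveolar macrophages depend, rose in Tnfr-/- lungs at 24, 48 and 72 h (log2 fold changes 1.48, 1.70 and 2.03, adjusted p = 0.017, 0.0024 and 0.00043). Its mean was 83.4 in Tnfr-/- air, with 1 of 3 arrays below the 20th percentile, and 222, 261 and 333 after O3. Tnfr+/+ lungs, where Csf2rb did not pass, averaged 154 in air and 161, 270 and 295 after O3. Csf2ra rose in Tnfr+/+ lungs at 72 h (1.00, adjusted p = 0.039), and by the mean of its probe sets did not pass (0.98, adjusted p = 0.18). Il3ra passed there too (adjusted p = 0.040), at 152 ± 57.9 against 46.8 ± 20.4 in Tnfr+/+ air (SD, n = 3), where 2 of the 3 arrays were below the 20th percentile, so the size of its change is not given. Csf1r, the receptor of M-CSF, fell in Tnfr-/- lungs at 48 h (-0.55, adjusted p = 0.016), but not by the mean of its probe sets (-0.32, adjusted p = 0.23). The Csf2rb calls at 48 and 72 h held with any 1 array left out. At 24 h the adjusted p rose to at most 0.102 once Tnfr-/- O3 24 h replicate 1 or 2 or the air lung of replicate 2 was left out, and for Csf1r to at most 0.104 without its O3 48 h replicate 2 or air replicate 3, both in Tnfr-/- lungs. The Csf2ra and Il3ra calls were lost when air replicate 2 or 3 of Tnfr+/+ was left out, among others (up to 0.139 and 0.144). Csf1r was the 1 called gene among 10 markers of monocytes and interstitial macrophages. In that comparison, Tnfr-/- lungs at 48 h against air, 1.49% of all genes fell. Ccr2, the chemokine receptor of inflammatory monocytes, had -0.86 in Tnfr-/- and 0.24 in Tnfr+/+ lungs at 72 h (adjusted p = 0.061 and 0.68).

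Other cell types were followed by lists of their markers. No dendritic cell marker (of 8), neutrophil marker (of 7), adipocyte marker (of 5) or cardiac muscle marker (of 8) passed after 48 h of O3 in either genotype. The summed monocyte and interstitial macrophage signal was 7120 to 7720 in Tnfr-/- lungs at 48 h, against 8350 to 9040 in Tnfr-/- air, while that of Cd68 and Ctsk rose. The sum weighs bright genes most, and Csf1r alone averaged 2760 at 48 h against 4030 in Tnfr-/- air. By the mean log2 signal of the list, these groups overlapped (8.62 to 8.76 against 8.72 to 8.82). The summed signal was 8190 to 9480 in Tnfr+/+ lungs at 48 h, against 8340 to 9220 in Tnfr+/+ air. The neutrophil sum was 2740 to 5660 in Tnfr-/- lungs at 24 h, when Cd68 was first called, against 2310 to 2890 in Tnfr-/- air. In Tnfr+/+ lungs at 24 h it was 2140 to 2940, against 4420 to 5210 in Tnfr+/+ air. The part of neutrophils in the Cd68 values was not tested. Of 58 calls of list genes over all comparisons, 21 held with any 1 array left out, against 7 of 12 calls of members. Those of Lgals3 against air, and of Chil3 and Olr1 in Tnfr-/- lungs against air, were among the 21, and none of those between the genotypes at 24 h was. Fitted on only the groups compared, 49 of the 58 ended.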

How the data were processed

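The authors processed each array with Affymetrix Expression Console to MAS5 signals, and the deposited values are these intensities on a linear scale, 1 per probe set and array. No read depth applies to arrays, and the precision is limited by their number, 3 a group. From these, 24 arrays were quantile-normalized, floored at 1 and put on the log2 scale. After 64 controls were removed, a probe set stayed if any array had it at or above that array's 20th percentile (20537 of 22644), and a gene was read by its probe set of highest mean (11597 genes). Names came from the platform annotation, updated by Entrez ID for 20309 of the 20338 probe sets with 1 gene; 691 had several and 1551 none. Groups follow the sample labels.

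One limma model (version 3.58.1, R 4.3.3) with a mean for each of 8 groups gave 17 comparisons: O3 against air, Tnfr-/- against Tnfr+/+, their interaction, and time steps. It had 16 residual and 2.38 prior degrees of freedom, and p was adjusted by Benjamini-Hochberg over the kept probe sets. The script was tested on simulated data. Alternatives were other normalization, filter, floor, pseudocount, probe set rule, array weights, samples, thresholds (the study's unadjusted 0.01 for O3 and 0.05 for genotype), the methods' t-test, a block on replicate number and leaving out each array. The members and gene lists were chosen with earlier results of these data known, and no p was adjusted over a list. Named were all members, the 3 genes most like each, called genes of each list (up to 3 by adjusted p in a comparison) and Tyrobp, Gpihbp1, Cd44, Mrc1, Csf1r and Ccr2. Labels give separate mice. Motifs were searched in RefSeq promoters (GRCm38.p6).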

Additional observations from a re-analysis of the deposited data

Results flagged for a closer look

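For 2 members every Tnfr-/- array moved one way and every Tnfr+/+ array the other between O3 at 24 h and the mean of the genotype's air group. Trem2 was above air in Tnfr-/- lungs and below it in Tnfr+/+ lungs, an interaction of 2.00 on the log2 scale (limma adjusted p = 0.85), with signals of 13.3 to 120.1 on the 6 exposed arrays. Lpl was below air in Tnfr-/- lungs and above it in Tnfr+/+ lungs, an interaction of -0.66 (adjusted p = 0.90). Neither interaction passed.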

How the results depend on the processing

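With values as deposited, cyclic loess, no filter, a floor of 32, a pseudocount of 16 or the mean of a gene's probe sets, each count of called members stayed within 1.5 times its value. With only probe sets at or above the median in 3 arrays, Tnfr-/- against Tnfr+/+ at 24 h called 1 (Cd68) and Tnfr+/+ 48 against 24 h called 3 (Marco, Ctsk and Gpnmb). With array quality weights these were 1 (Cd68) and 2 (Cd68 and Ctsk). Fitting only the groups compared gave 0 for Tnfr-/- at 24 h, 1 for Tnfr+/+ at 48 h (Marco), 0 for Tnfr+/+ at 72 h and 0 for Tnfr-/- 48 against 24 h; these fits have fewer samples. At the study's unadjusted thresholds the counts were 2 in Tnfr-/- and 2 in Tnfr+/+ lungs at 24 h (Msr1 higher and Gpnmb lower in Tnfr+/+), 2, 2 and 1 between genotypes at 24, 48 and 72 h, 2, 3 and 1 for the interaction, and 2 and 4 for 48 against 24 h in Tnfr-/- and Tnfr+/+ lungs. The methods' t-test at these thresholds gave 0 in Tnfr-/- and 2 in Tnfr+/+ lungs at 24 h (Msr1 and Cd68) and 1 between genotypes in air (Ctsk, lower in Tnfr-/-), and adjusted it gave 0 in all 6 comparisons with air.

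Leaving out each array gave 2 to 3 members for Tnfr-/- at 48 h, 1 to 3 for Tnfr+/+ at 48 h, 1 to 3 for Tnfr+/+ at 72 h, 0 to 1 for Tnfr-/- against Tnfr+/+ at 24 h, and 0 to 1 for 48 against 24 h in either genotype. The lowest counts came without Tnfr+/+ O3 48 h replicate 2 (1, Marco), and without Tnfr+/+ air replicate 2 or 3 (1, Ctsk); Tnfr+/+ 48 against 24 h called 1 (Marco) without Tnfr+/+ O3 24 h replicate 2. Over 1642 member results that kept all arrays and 3264 with 1 left out, none reversed; 24 and 60 uncalled ones changed sign. Same-numbered replicates did not deviate together (r from -0.181 to 0.115, 1 of 42 pairs over 0.1). No pairing by number was seen, though such correlations cannot exclude a weak one. The replicate block left the counts at 1, 2 and 2 in Tnfr-/- and 0, 3 and 3 in Tnfr+/+ lungs against air. Of 58 calls of list genes, 49 ended when only the groups compared were fitted, 11 with the mean of the gene's probe sets, 8 without a filter, 7 on the values as deposited, 5 with array quality weights, 4 with cyclic loess, 2 with the floor of 32 and 14 with the block. The block ended the calls against air of Itgb2 at 24 h and Scarb1 at 48 h in Tnfr-/- lungs and of Olr1 at 48 and 72 h, Ctsh at 48 h and Cxcl16 at 72 h in Tnfr+/+ lungs, and those of Itgb2, Lgals3 and Plcg2 between the genotypes at 24 h. Dimness limits Trem2 and 3 of 4 Msr1 probe sets.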
